A study of Caenorhabditis elegans with 2 samples.

Results

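The genes tsp-12, tsp-14, tsp-21, sup-17 and adt-2 encode 3 tetraspanins and 2 metalloproteases that modulate BMP signalling in Caenorhabditis elegans, and are 5 of 19973 nuclear protein-coding genes in the annotation. They were grouped by these roles, and every region lying in one of them or within 5000 bp was collected from lists of sites recovered with the Smad protein SMA-3. The material was whole hermaphrodite L2 larvae, taken 24 hours after starved, synchronised L1 animals were released. The strain was CS152, in which a sma-3(wk30) mutant carries the integrated array qcIs[gfp::sma-3+rol-6], and immunoprecipitation used an antibody to GFP. The labels name the fusion both as gfp::sma-3 and as a C-terminal GFP-FLAG tag, so the tagged end is not settled here. There were 2 biological replicates of this 1 group, and no untagged or unstimulated animals were analysed here. Whole animals were used, so the cells in which a site was occupied are unknown.

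Tetraspanins are small proteins with several membrane-spanning segments that organise other membrane proteins into patches. In the worm, TSP-12 and TSP-14 are closely related and act redundantly with each other, TSP-21 acts with them, and all promote signalling by the BMP-like ligand DBL-1, which controls body size and mesoderm patterning. SUP-17 is the worm ADAM10, a membrane-bound protease that TSP-12 and TSP-14 help to place at the cell surface. It sheds the outer parts of membrane proteins, among them the neogenin UNC-40 and the Notch receptors. ADT-2 is a secreted protease of the ADAMTS family that affects body size and the order of collagens in the cuticle. SMA-3 is the receptor-regulated Smad that carries the signal of this pathway to the nucleus, whereas these 5 gene products act outside the nucleus.

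A region is an interval called by the authors, its summit the base of highest signal in it, and its signal the authors' value, used to rank regions within a list. The optimal list held 4205 regions, which were the highest of the pooled list of 30000, with signals of 70.1 to 1762 and a median of 121. Each replicate had its own list of 30000. A summit was called promoter-proximal, or in a promoter window, when it lay no more than 1000 bp before an annotated start site of the gene and no more than 200 bp after it. Coordinates are on ce11.

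Optimal regions lay at 4 of the 5 genes, and their number and strength differed widely. In all 8 were found, 5 at adt-2 and 1 each at tsp-21, tsp-12 and sup-17, whereas tsp-14 had none. For comparison, 39.2% of all protein-coding genes had an optimal region in the gene or within 5000 bp. Summits in their own promoter windows were found at 3 of the 5, tsp-21, sup-17 and adt-2, beside 14.3% of all protein-coding genes. As tsp-14, tsp-21 and adt-2 lie on X, the shares on X are also of use. They were 45.2% within 5000 bp and 14.7% in a promoter window. The highest region was that of tsp-21, and 6 of the 8 had ranks of 2918 to 3841. These counts are a description, and no test was made of them.

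**Figure D1:**
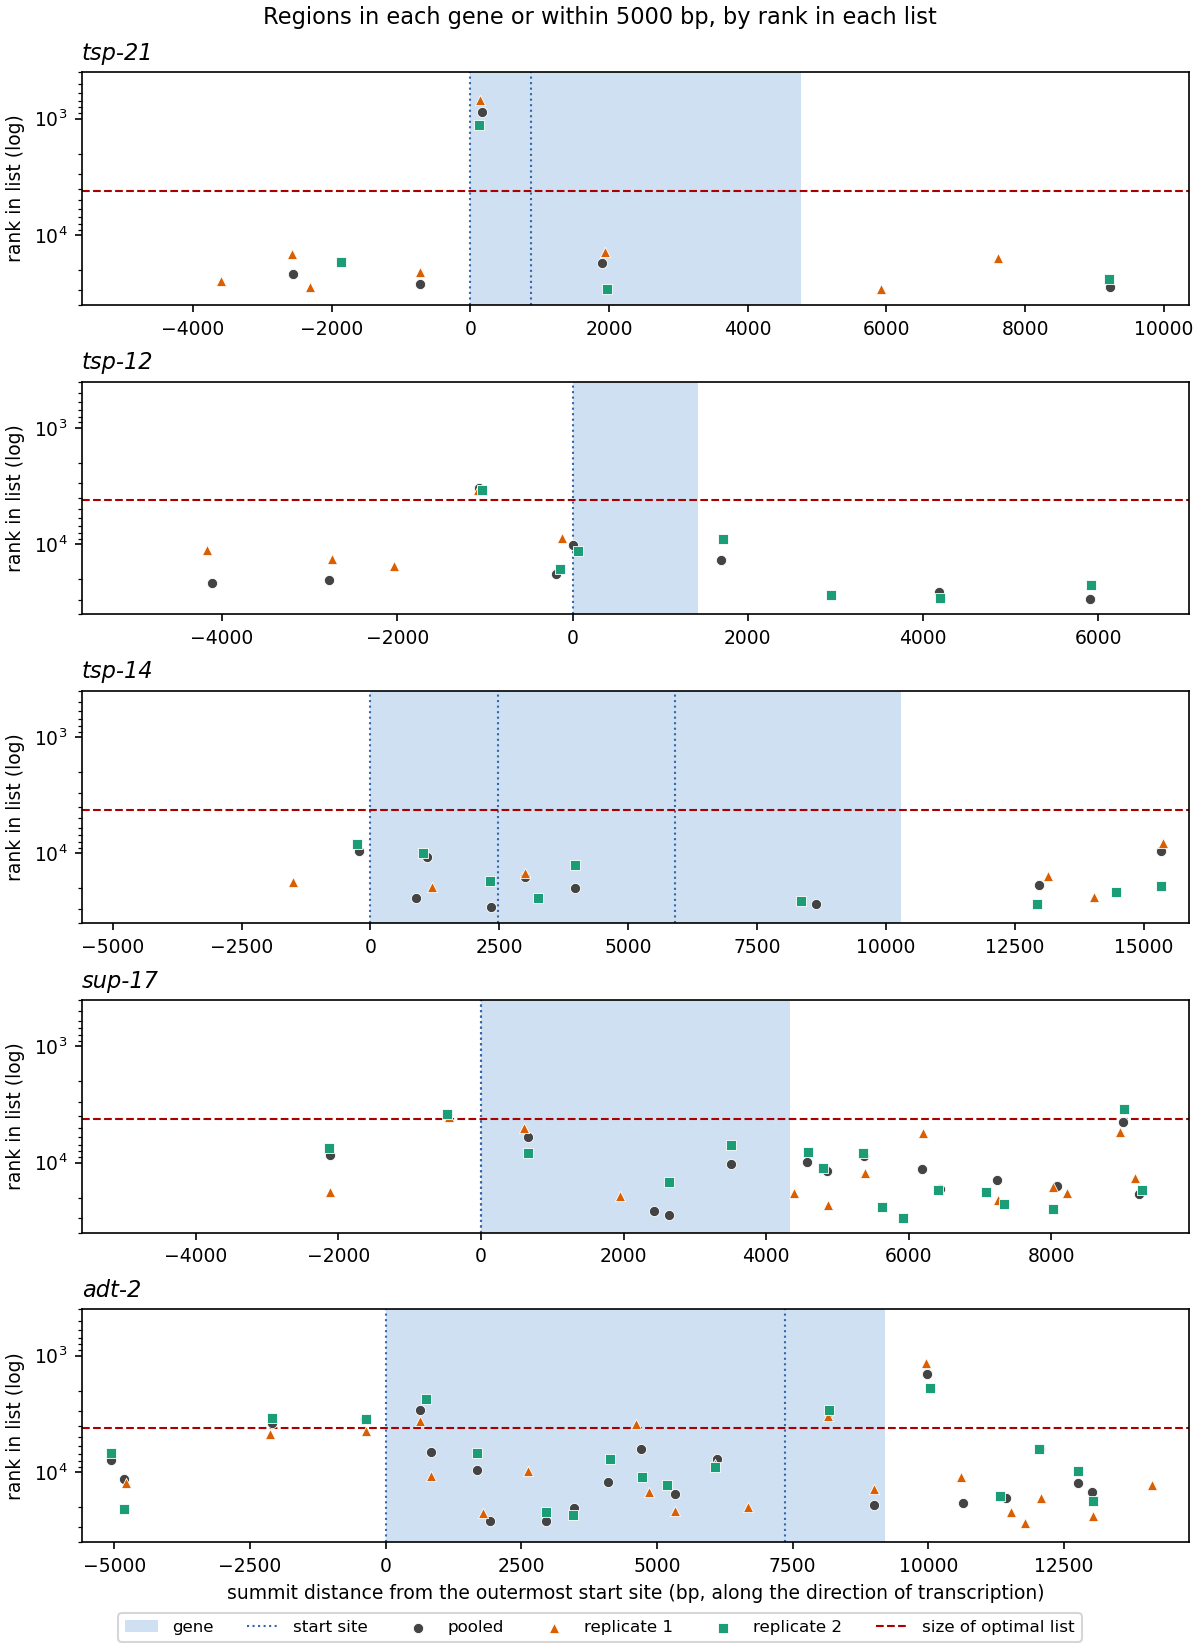
Rank by signal (log axis, highest at the top) against the distance of the summit from the outermost start site, for every region in each gene or within 5000 bp of it, in the pooled list and in the lists of replicates 1 and 2. Shading marks the gene, dotted lines its start sites and the dashed line rank 4205, above which the pooled regions are optimal. The highest tsp-21 region lies close to its outermost start site, tsp-14 has no region above the line, and adt-2 has them from upstream of the gene to beyond its end.

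**Figure D2:**
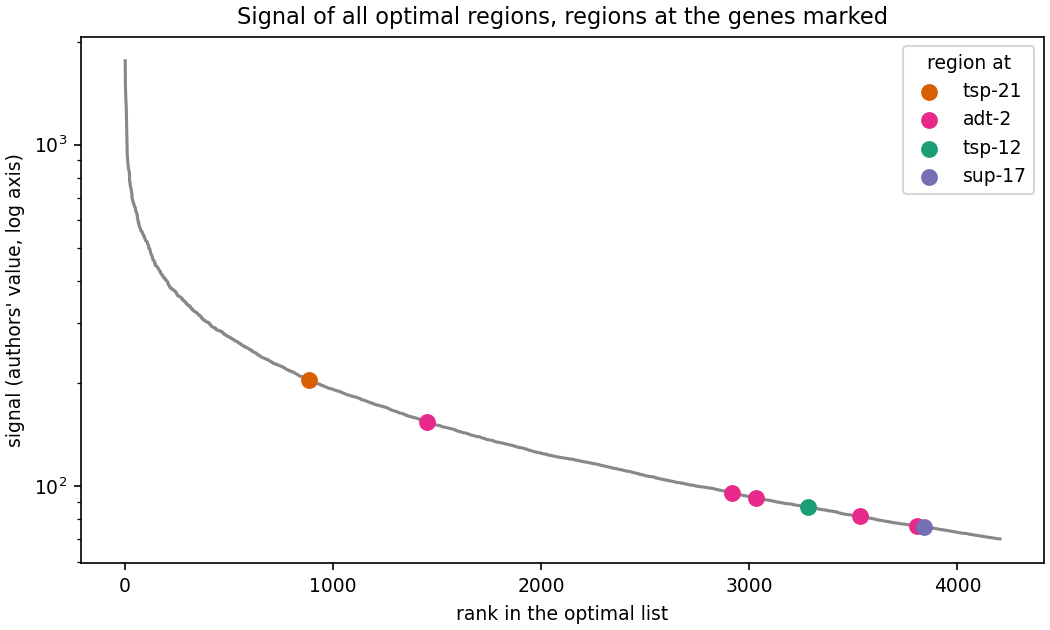
Signal of all 4205 optimal regions (log axis) against their rank, with the 8 regions at tsp-21, adt-2, tsp-12 and sup-17 marked. Those of tsp-21 (rank 884) and of adt-2 beyond its 3' end (rank 1453) lie in the upper part of the list, and the other 6 lie between ranks 2918 and 3841.

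The tetraspanin gene tsp-21 (WBGene00023491, X, 9932371 to 9937133, plus strand) carried the strongest region of the group. It spanned 9932338 to 9932737 and had a signal of 205 and rank 884 in the pooled list, with 21% of optimal regions above it. Its signal was 97.2 in the list of replicate 1 (rank 697) and 107 in that of replicate 2 (rank 1137). The summit fell 167 bp downstream of the outermost start site, in an intron, and 709 bp upstream of the start site of the shorter transcript, C17G1.8.1. The replicate summits were 142 and 132 bp downstream, 10 bp apart. No other protein-coding gene had this summit in a promoter window, although the region overlapped the non-coding RNA genes C17G1.9 and C17G1.11. The other 4 pooled regions around tsp-21 had signals of 11.5 to 18.1, so nothing else near the gene approached the optimal list. One of these, 721 bp upstream, lay in the windows of tsp-21 and of its divergent neighbour nra-3, with a signal of 12.3. The sequence of the 75 bp on each side of the tsp-21 summit is shown because it is the best supported site at any of these genes. The windows were searched on both strands for 7 motifs, which capitals mark where found. These were the Smad element GTCTG and its reverse complement extended by a base, CAGACA, the GC-rich elements GGCGC and also GCCGNCGC, the E-box CACGTG, the GATA site TGATAA and lastly the repeat GAGAGA. The tsp-21 window held none of them.
tsp-21 summit, chrX:9932463-9932613, plus strand: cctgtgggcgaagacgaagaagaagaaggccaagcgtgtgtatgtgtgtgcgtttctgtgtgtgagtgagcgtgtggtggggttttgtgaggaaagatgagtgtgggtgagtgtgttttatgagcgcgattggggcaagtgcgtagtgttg

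The tsp-12 gene (WBGene00006638, IV, 10149166 to 10150602, minus strand) had 1 optimal region, which lay nearer to another gene. The region, 10151472 to 10151871, had a signal of 87.0 and rank 3280. In replicate 1 its signal was 36.5 (rank 3411) and in replicate 2 it was 50.4 (rank 3443), so the ranks of the replicates lay close together. The summit was 1070 bp upstream of tsp-12, outside the promoter window, and nearer to the start site of copg-1, in whose promoter window it lay. This gene encodes the gamma subunit of the COPI vesicle coat. The start sites of these divergent genes are 1345 bp apart. At the tsp-12 start site itself, 9 bp downstream, the pooled signal was 30 (rank 10083), and the replicate regions closest to it had ranks of 8838 and 11435. The summit window shared by tsp-12 and copg-1 is shown because it held the densest Smad motifs of the group. Smad proteins bind GTCTG, and every CAGACA holds one in reverse complement. GTCTG occurred 3 times and CAGACA 2 times, and a tandem GTCTGTCTG ended at the summit. A single GTCTG or more occurred in 24.3% of all optimal windows and CAGACA in 12.7%. Windows with 3 or more GTCTG made up 0.499% of them and windows with the tandem 0.214%, or 9 of 4205. These last features were chosen after the window had been seen. Capitals mark the motifs.
tsp-12 upstream summit, chrIV:10151597-10151747, minus strand: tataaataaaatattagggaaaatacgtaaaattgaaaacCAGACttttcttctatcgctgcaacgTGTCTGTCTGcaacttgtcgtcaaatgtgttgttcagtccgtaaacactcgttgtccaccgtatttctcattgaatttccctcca

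At tsp-14 (WBGene00006640, X, 4866681 to 4876965, minus strand), the close relative of tsp-12, no region reached the optimal list. The gene has 3 start sites, and 9 pooled regions lay in it or within 5000 bp, with signals of 11 to 31.9. The highest had rank 9487 and its summit 215 bp upstream of the outermost start site. Replicate 2 had a region there too, 260 bp upstream with a signal of 23.1 (rank 8334). A second pooled region in a promoter window, 135 bp upstream of an inner start site, had a signal of 11. The list of replicate 1 held no summit in any promoter window of tsp-14. Its only region upstream of the gene lay 1504 bp upstream at rank 17717, and its highest, rank 8163, lay beyond the 3' end of the gene. A signal of 31.9 is below the 70.1 at which the optimal list ended. Of all protein-coding genes, 42.5% had a lower highest region by the same rule, 22.5% having none at all in the pooled list. The depth of the libraries is unknown and no floor was computed, so the lack of an optimal region does not show that occupancy at tsp-14 was absent.

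The ADAMTS gene adt-2 (WBGene00000083, X, 7586209 to 7595416, plus strand) had 5 optimal regions, more than the other 4 genes together. Among protein-coding genes, 0.691% had 5 or more. The gene is long, and of the 1186 genes at least as long as it, 3.37% had 5 or more. The count of 5 was taken up after it had been seen. Upstream, a region at 7583920 to 7584319 had its summit 2089 bp before the outermost start site (signal 76.6, rank 3806), and one at 7585620 to 7586019 lay in the promoter window, 389 bp upstream (signal 81.6, rank 3531). The third, at 7586643 to 7587042, was intronic, 634 bp downstream of the start site, with a signal of 95.8 and rank 2918. It overlapped the non-coding RNA genes F08C6.13 and F08C6.17, and the region 2089 bp upstream overlapped F08C6.10 and F08C6.15. The fourth spanned 7594187 to 7594586, with a signal of 92.6 and rank 3032. Its summit fell in an annotated 3' UTR of adt-2, 815 bp downstream of the start site of the short transcript F08C6.1b.1. The highest, at 7596103 to 7596277, had a signal of 154 and rank 1453 and lay 765 bp past the end of adt-2. That summit was also 746 bp upstream of C44E12.1, whose start site was the nearest, so it counts as a promoter region of C44E12.1 and not of adt-2. The other 17 pooled regions at adt-2 lay outside the optimal list, the highest of them at rank 6348.

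At 4 of the 5 optimal regions of adt-2 the ranks of the replicates lay farther apart than at the optimal regions of tsp-21, tsp-12 and sup-17. The region 2089 bp upstream had a signal of 28.3 and rank 4690 in replicate 1, and 50.4 and rank 3441 in replicate 2. The promoter region had a signal of 29.5 and rank 4474 in replicate 1, and 49.4 and rank 3531 in replicate 2. Both were thus outside the 4205 highest regions of replicate 1 and inside those of replicate 2. The intronic region ranked 3645 and 2363 in replicates 1 and 2, with its summits 98 bp apart, the widest gap among the 8. The region in the 3' UTR ranked 3322 and 2914, and that beyond the gene 1158 and 1908.

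Summit windows of adt-2 outside the 3' UTR are shown for the upstream, promoter and intronic regions, since these are the ones nearest its own start site. The upstream window held the GATA site TGATAA at 2 places, and 18.9% of optimal windows held this motif. The promoter window held none of the 7 motifs. In the intronic window GTCTG began 65 bp downstream of the summit. Of the windows not shown, that in the 3' UTR held the E-box CACGTG, as did 9.44% of optimal windows, and that beyond the gene held none of the 7. Capitals mark the motifs.
adt-2 upstream summit, chrX:7584045-7584195, plus strand: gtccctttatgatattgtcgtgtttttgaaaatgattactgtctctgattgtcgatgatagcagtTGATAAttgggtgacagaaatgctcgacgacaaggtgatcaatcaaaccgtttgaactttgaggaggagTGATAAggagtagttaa
adt-2 promoter summit, chrX:7585745-7585895, plus strand: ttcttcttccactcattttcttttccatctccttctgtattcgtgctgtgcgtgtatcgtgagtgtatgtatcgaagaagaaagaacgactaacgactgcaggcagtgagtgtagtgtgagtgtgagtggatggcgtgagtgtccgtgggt
adt-2 intronic summit, chrX:7586768-7586918, plus strand: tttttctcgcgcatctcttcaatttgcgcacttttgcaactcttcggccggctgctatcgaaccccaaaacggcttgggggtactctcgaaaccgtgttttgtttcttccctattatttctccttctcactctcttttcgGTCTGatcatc

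Smad motifs were counted over the 8 summit windows together. A Smad motif, which is GTCTG or either GC-rich element, the longer of them described for the fly Smad Mad, occurred in 3 of the 8, at tsp-12, sup-17 and the adt-2 intron, beside 43.3% of all optimal windows. None of the 8 held GAGAGA, which 31.7% of optimal windows held, or GGCGC, which 23.5% held. Windows of the same width centred 600 bp to the left held such a Smad motif at 5 of the 8 summits, and those 600 bp to the right at 2, beside 21.5% of all optimal regions on each side. The G and C content of the 8 windows ran from 37.1 to 52.3%, around the median of 43% over all optimal windows. A motif match describes the letters of a window and does not show that a factor bound there.

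The ADAM10 gene sup-17 (WBGene00006324, I, 8792964 to 8797295, plus strand) had 1 optimal region, in its own promoter window. It spanned 8792293 to 8792692 with a signal of 76.0, and with rank 3841 it was the lowest of the 8. Its signal was 31.7 in replicate 1 (rank 4080) and 46.4 in replicate 2 (rank 3815). The pooled and replicate 2 summits were both 471 bp upstream of the outermost start site, and that of replicate 1 was 444 bp upstream. No other protein-coding gene had this summit in a promoter window, and the region overlapped the non-coding RNA gene DY3.11. GCCGNCGC, found in 2.35% of optimal windows, began 51 bp downstream of this summit. In and around the gene there were 15 pooled regions in 14332 bp, the optimal one included, or 1.05 per kb. Many of their summits lay past its end, in F36A2.3 or F36A2.2. The density over all genes was not computed. At tsp-21 there were 0.339 per kb, at tsp-14 0.444, at tsp-12 0.699 and at adt-2 1.15. Some pooled regions at sup-17, adt-2, tsp-12 and tsp-14 overlapped one another, so these densities count calls and not separate sites.

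Just outside the optimal list, the nearest regions lay at sup-17 and adt-2. One with signal 66.7 and rank 4458 lay 4675 bp past the end of sup-17, in a coding exon of F36A2.2. It ranked 5489 in replicate 1 and 3442 in replicate 2, and thus passed rank 4205 in replicate 2 alone. Another, of rank 6051, lay in a coding exon of sup-17, 654 bp downstream of its outermost start site, and ranked 5021 and 8226 in replicates 1 and 2. At adt-2 a region in an intron, 4705 bp downstream of the start site, had a signal of 47.8 and rank 6357. Its ranks of 3862 in replicate 1 and 11156 in replicate 2 put it inside the 4205 highest in replicate 1 alone. Just inside the list were the sup-17 promoter region and the upstream region of adt-2, described above.

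Of the 8 optimal regions, 6 overlapped one of the 4205 highest regions in both replicates, beside 80.3% of all optimal regions. The exceptions were the upstream and promoter regions of adt-2. All 8 overlapped some region in the full lists of both replicates. Ranks differed between the replicates by 32, at tsp-12, to 1282, at the adt-2 intron, with a median of 595. Over 4197 optimal regions with a counterpart in both lists the median difference was 485. Summits of the replicates were 5 to 98 bp apart at the 8 regions, with a median of 35.5 bp, and had a median distance of 20 bp over all. Since the optimal list was derived from these same replicates, this overlap is partly built in.

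**Figure D3:**
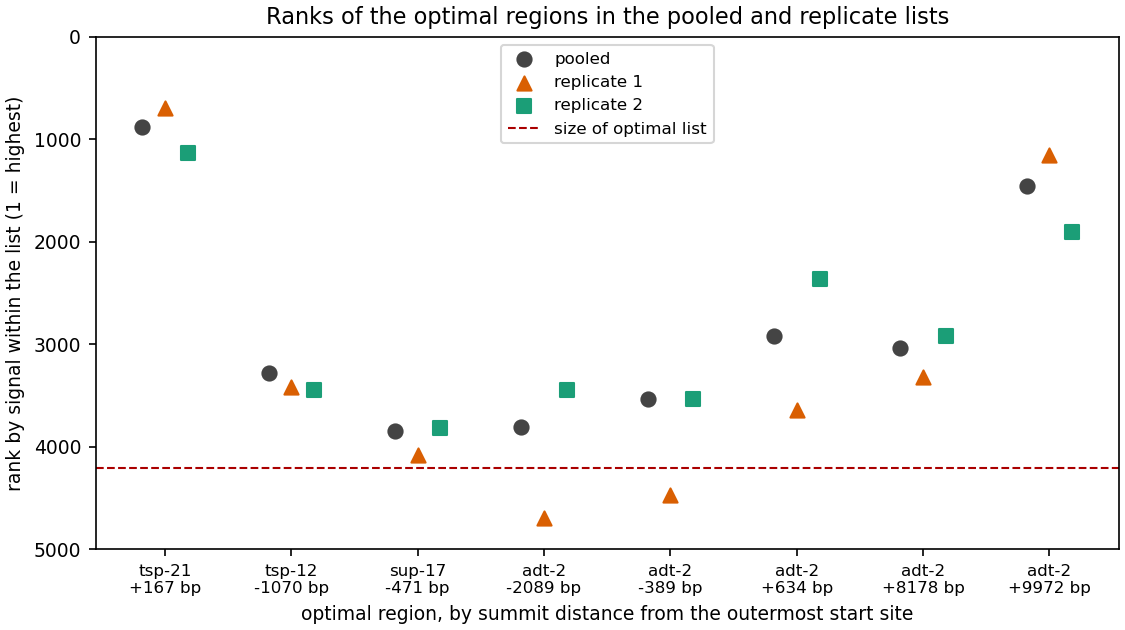
Rank by signal within the pooled list and the lists of replicates 1 and 2 for the 8 optimal regions, with the highest rank at the top. The dashed line is rank 4205. The regions 2089 and 389 bp upstream of adt-2 fall below the line in replicate 1, and the other 6 lie above it in both replicates.

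Neighbouring genes shared 2 of the 8 regions by the nearest start site. The nearest protein-coding start site belonged to the gene in question at 6 regions, to copg-1 at the tsp-12 region and to C44E12.1 at the region beyond adt-2. With each region given only to the nearest start site, 3 of the 5 genes had one, tsp-21, sup-17 and adt-2, beside 15.7% of all protein-coding genes, and tsp-12 had none.

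Set among the tetraspanin genes of the genome, the highest region of tsp-21 (205) exceeded that of all 18 other genes of the tsp series. That of tsp-12 (87.0) exceeded 16 of them, but it is the region in the promoter window of copg-1. At the tsp-12 start site itself the pooled signal was 30.0. None of these 18 tetraspanin genes had a promoter summit, beside 14.3% of all protein-coding genes. An optimal region lay within 5000 bp of 4 of them (22.2%, beside 39.2% of all protein-coding genes). These were tsp-13 (highest signal 174), tsp-17 (128), and tsp-1 and tsp-2 (70.2 each). Over the 18, the highest pooled region had a median signal of 25.6, beside 45.5 over all protein-coding genes, and 6 had no pooled region. The tsp-14 value of 31.9 lay between these medians. The proteases sup-17 and adt-2 both had a promoter summit, with signals of 76.0 and 81.6. Of 8 other genes for ADAM and ADAMTS proteases, 2 had a promoter summit, beside 14.3% of all protein-coding genes. These were adm-2 and adm-4, with signals of 79.8 and 121. An optimal region lay within 5000 bp of 4 of the 8, beside 39.2% of all protein-coding genes. These were adm-2, adm-4, adt-1 and adt-3. The highest region near adm-2 had a signal of 763, above any at sup-17 or adt-2. No test was made between these lists, and paralogous genes next to each other can share regions.

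**Figure D4:**
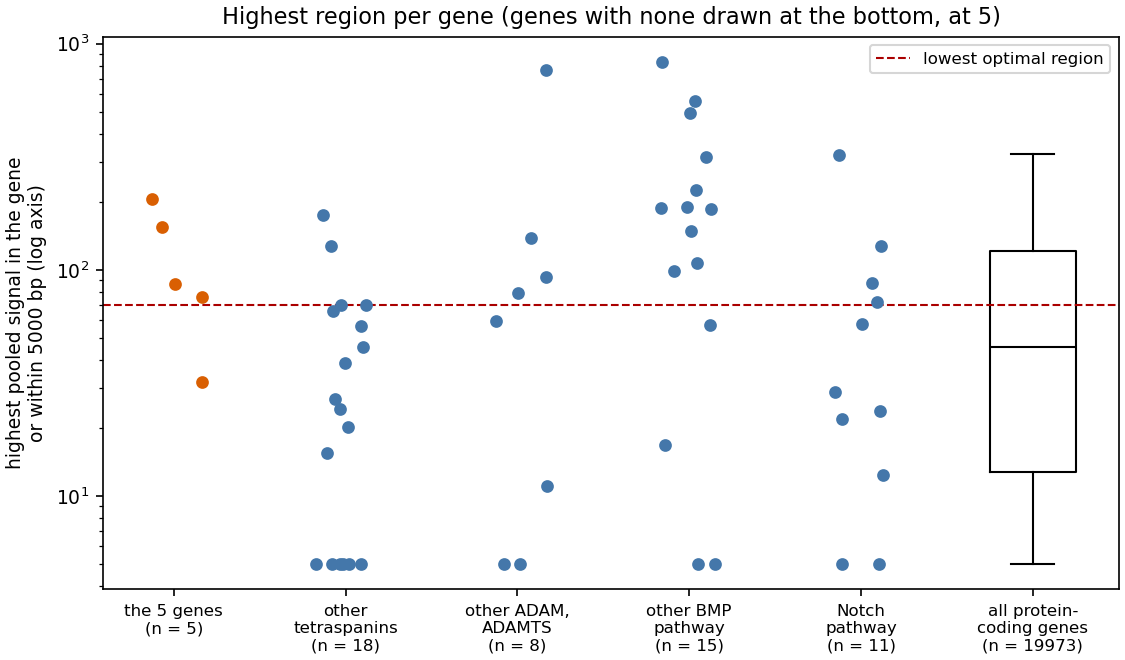
Highest pooled signal in each gene or within 5000 bp of it (log axis), for the 5 genes, 18 other tetraspanins, 8 other ADAM and ADAMTS genes, 15 other BMP pathway genes, 11 Notch pathway genes and all 19973 protein-coding genes. Points are genes, those with no region being drawn at the bottom, the box and whiskers give the quartiles and the middle 90% of all protein-coding genes, and the dashed line is the lowest optimal signal, 70.1. Of the 5 genes, tsp-14 alone lies below the line. The value of tsp-12 (87.0) is that of the region in the promoter window of copg-1. The value of adt-2 (154) is that of the region beyond its end, in the promoter window of C44E12.1.

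The highest pooled region had a median signal of 87.0 over the 5 genes and of 185 over 15 other genes of the BMP pathway. The value of 87.0 is that of the tsp-12 region nearer to copg-1. Of these 15, 11 had an optimal region within 5000 bp (73.3%, beside 39.2% of all protein-coding genes). A promoter summit was found at 5 (33.3%, beside 14.3%), sma-2, sma-9, sma-10, sma-6 and unc-40. The sma-2 and sma-10 summits, with signals of 831 and 225, lay in the windows of ugtp-1 and srh-282 too. At unc-40, which encodes the neogenin cleaved by SUP-17, the promoter region had a signal of 149, was shared with npp-7 and ranked 1541. SUP-17 also sheds the outer parts of the Notch receptors. Of 11 Notch pathway genes none had a promoter summit, beside 14.3% of all protein-coding genes. An optimal region lay within 5000 bp of 4 (36.4%, near the 39.2% of all protein-coding genes). These were lag-1 (highest signal 322), sel-8 (127), lag-2 (87.4) and glp-1 (72.5).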

How the data were processed

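SMA-3 was mapped by GFP chromatin immunoprecipitation sequencing in 2 biological replicates. Per the listing deposited with each sample, the authors called regions in each replicate and in the pooled alignments against 1 shared control and derived the optimal list by an irreproducible discovery rate procedure. For the aligner, peak caller, thresholds and depth, the sources used here give nothing. Column 7 of each deposited list holds the authors' signal value per region, whose scaling between lists is unknown, so only ranks were compared between lists, and no interval or floor was computed. The optimal list was the top of the pooled list, and all regions lay inside the chromosomes of the reference. Summits come from the authors' offset column.

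Genes came from Ensembl release 115 (WBcel235, the assembly of ce11), without the mitochondrial genome, with 29314 start sites, and sequences from RefSeq of the same assembly. A region was counted at a gene when its interval reached the gene or 5000 bp on either side, and was matched to the highest-signal region overlapping it by 1 bp in another list. Of the ce10 lists, the optimal one gave a count only. Members, comparison lists and alternatives were chosen with earlier results of these data known, so no list was tested. The genes named are the 5, those whose start site is nearest to or shares a region with theirs, and genes of the comparison lists with a promoter summit. Others, those with an optimal region only within 5000 bp included, were named after their values were seen. The steps were checked on made-up genes with planted regions. Python 3.11.15, pandas 2.3.3, numpy 2.4.6 and matplotlib 3.10.9 were used.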

Additional observations from a re-analysis of the deposited data

How the results depend on the processing

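Restricting the optimal list to its 2102 highest regions left 2 genes with a region, tsp-21 and adt-2 (24.8% of all genes). There were 2 regions in all, 2 of them seen in both replicates (99.6% of all regions). The adt-2 region left was the one beyond its end, in the promoter window of C44E12.1. A promoter summit remained at 1 gene, tsp-21 (8.36% of all genes). Taking only the 2102 highest regions of each replicate left 2 regions seen in both (42.3% of all optimal regions). Smad motifs were found in 1 of the 8 windows at 50 bp on each side (34.3% of all optimal windows), in 5 at 150 bp (57.1%), in 5 at 600 bp to the left and in 2 at 600 bp to the right (21.5% each), against 3 at the summits (43.3%). The 4205 highest regions of 1 replicate's list were also used in place of the optimal list. In either case 4 genes had a region (38.9% of all genes in replicate 1 and 39.1% in replicate 2), and the regions numbered 7 to 9. A promoter summit was found at 2 genes in replicate 1 (13.9% of all genes) and at 3 in replicate 2 (14.3%). The gene lost in replicate 1 alone was adt-2. Of the 8 optimal regions, 6 overlapped one of the 4205 highest of replicate 1 (87.8% of all optimal regions) and 8 one of those of replicate 2 (91.6%). The rank of the highest region ran from 697 to 1137 at tsp-21 and from 3815 to 4080 at sup-17. At adt-2 it ran from 1158 to 1908, for the region beyond its end. At tsp-12 it ran from 3411 to 3443, for the region nearer to copg-1. Distances of 2000 bp (26.7% of all genes) and 10000 bp (53.9%), counting by summit (38.6%), and a list as long as the ce10 optimal list (5405 regions, chosen after seeing the data, 45.1%) each gave 4 genes. Windows of 500 bp upstream to 100 bp downstream gave 2 genes with a promoter summit (11.4% of all genes), and windows of 2000 bp upstream to 500 bp downstream gave 4 (18.7%). The cause of these differences was not tested beyond the change of window or list itself. Depth is unknown, so an unlisted site is not shown to be unoccupied. No paired analysis was possible because there is 1 group.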
